A study of Mus musculus with 8 samples.

Results

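The genes described here encode the scaffold of the sarcomere in mouse muscle cells: the Z-disc, the M-band, and the proteins that cross-link, cap or run along the thin and thick filaments. They were chosen by symbol from what their proteins are known to do, with earlier results of these data known. The myosin, troponin and actin families were not included. All 42 genes were found among the 23420 gene lines of the count table, and they fall into 24 Z-disc, 5 M-band, 9 thin filament and 4 thick filament genes. RNA was sequenced from C2C12 cells, a line of mouse myoblasts that leave the cell cycle and fuse into multinucleate myotubes when serum is lowered. Cells labelled WT were compared with cells that overexpress AUF1, the product of Hnrnpd, which attaches to AU-rich stretches of mRNA. Both were grown in 10% fetal bovine serum and then held for 48 h in 2% horse serum. From each genotype, total RNA and cytoplasmic RNA from heavy polysomes, the fraction in which an mRNA carries many ribosomes, were made into libraries, which gave 4 groups of 2 libraries. An empty vector in the WT cells is not mentioned in the sources used here, nor is it stated if the AUF1 cells are a pool or 1 clone. What AUF1 does and what sets the cell lines apart otherwise cannot be told apart. Separate cultures for the 2 replicates are not stated either, so that p-values here cover only the scatter of these libraries, some of which may be technical.

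In a sarcomere, thin filaments of actin are anchored at the Z-disc and slide past thick filaments of myosin, which are held in register at the M-band. Alpha-actinin cross-links thin filaments of opposite polarity in the Z-disc, titin spans from the Z-disc to the M-band, and nebulin and tropomyosin run along the thin filament. Differentiating myoblasts replace several non-muscle members of these families by muscle members while premyofibrils mature into striated myofibrils.

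The libraries held 25281224 to 34917660 counts assigned to genes, so counting error is small for all but the rarest members. Hnrnpd, the overexpressed gene, checks the labels. Its levels were 64.2 and 99.6 CPM (counts scaled to library depth with TMM factors, replicates 1 and 2 in that order here and below) in WT total RNA and 448 and 397 CPM in AUF1 total RNA. On polysomes they were 106 and 131 CPM in WT and 549 and 427 CPM in AUF1 cells. Both AUF1 libraries lay above both WT libraries in each fraction, and in total RNA the rise was 2.37 ± 0.32 on the log2 scale (SE, edgeR adjusted p = 0.0413). Muscle lineage markers were present in all libraries and summed to 1405 to 1818 CPM in WT and 6139 to 9153 CPM in AUF1 total RNA.

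In total RNA the scaffold genes were mostly higher in AUF1 cells. Their summed level was 8595 and 9795 CPM in WT and 29197 and 27735 CPM in AUF1 libraries. Of the 42 genes, 40 had enough counts to be tested. Myoz3 (at most 4 counts in a library) and Cmya5 (at most 3) were not. Of the tested genes, 11 rose at an adjusted p under 0.05 and 0 fell (edgeR's quasi-likelihood test, Benjamini-Hochberg adjusted over 13167 genes, no term for the replicate number). Over all genes tested, 0.82% were called higher and 0.197% lower. With the replicate number as a block, 31 of the 40 rose, against 6.99% of all genes, and 1 fell, against 6.15%. The DESeq2 Wald test called 29 higher, against 3.97% of all genes, and 0 lower, against 2.75%. The median log2 difference was 2.24 over the 40 genes and 0.00 over all genes, and 37 of the 40 lay above 0. In 32 of the 40 both AUF1 libraries lay above both WT libraries (22.5% of all genes did), and in 2 they lay below (17.8%). In bulk RNA, a larger share of differentiated cells and more of these mRNAs per cell cannot be told apart.

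The calls without the block stand close to the threshold. Their adjusted p lay between 0.0399 and 0.0441, and with DESeq2's size factors in the same edgeR fit 0 genes passed, the smallest adjusted p being 0.0501. Of the genes that edgeR called higher only with the block, all but Ttn and Flnc were also called by the DESeq2 Wald test, which has no block. All 11 were called under the block, under the DESeq2 Wald test and in each of the 8 fits that kept the block and left out 1 library. Without the block, 0 genes passed when any 1 library was left out (smallest adjusted p 0.0896). With the block, the count of 31 scaffold genes came down to 17 without replicate 1 of WT total RNA.

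**Figure D1:**
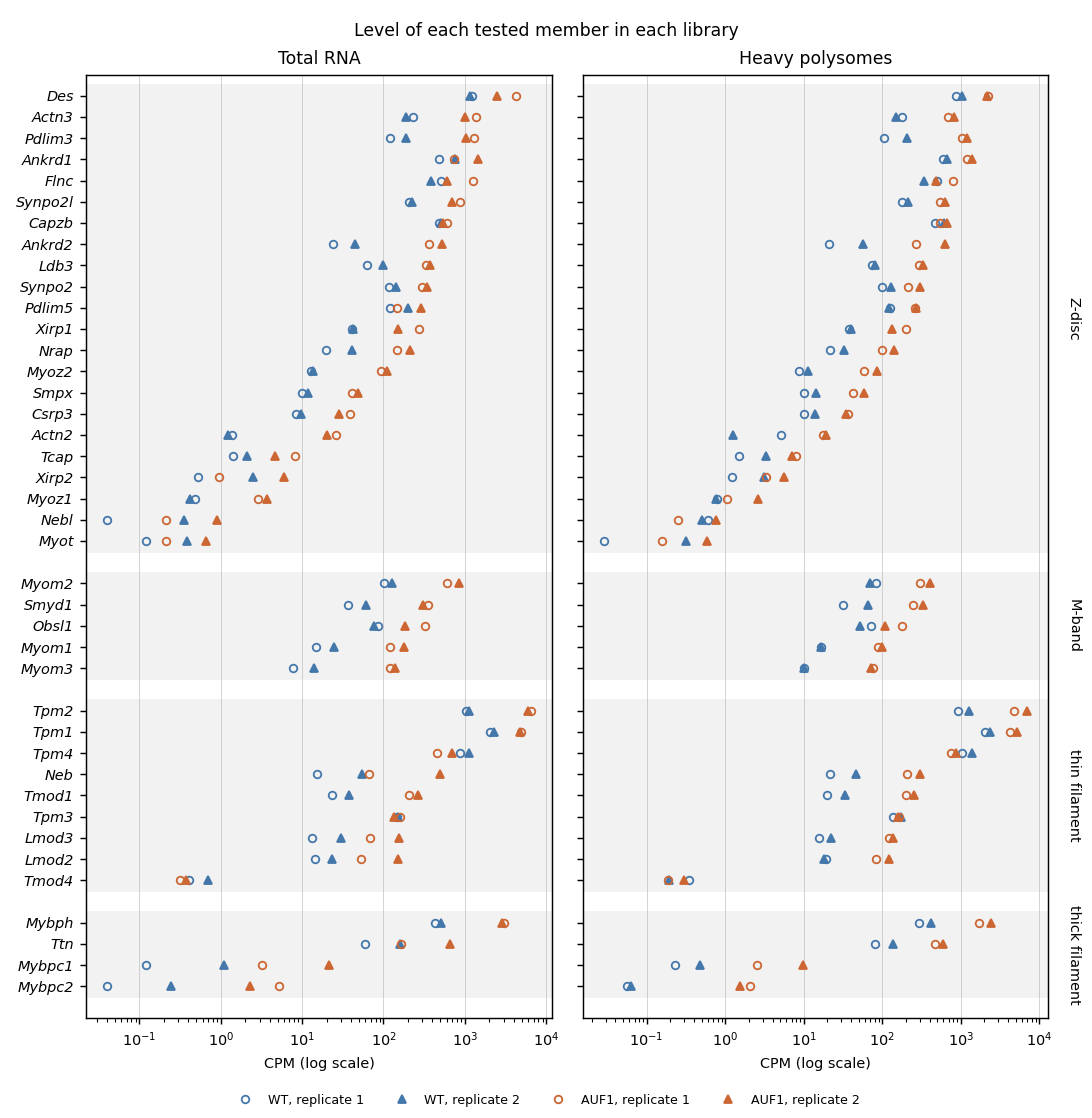
Level of the 40 tested scaffold genes in each of the 8 libraries, in CPM on a log axis, by sarcomere compartment (left, total RNA; right, heavy polysomes; blue, WT; orange, AUF1; open circles, replicate 1; filled triangles, replicate 2). The orange symbols lie to the right of the blue ones for most genes, and to the left for Tpm4 and, in total RNA, Tmod4.

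Among the Z-disc genes, 5 of the 22 tested rose in total RNA and 16 did with the block, with a median log2 difference of 1.89. All 22 differences lay above 0. Actn3 encodes alpha-actinin 3, the actin cross-linker of fast fibres (chromosome 19, 4861216 to 4877909, minus strand, in the GENCODE M21 annotation of mm10, which gives all gene positions here). It had 234 and 189 CPM in WT and 1368 and 1000 CPM in AUF1 cells, a log2 difference of 2.49 ± 0.28 (SE, adjusted p = 0.0399). Its paralogue Actn2 was far less abundant, at 1.38 and 1.23 CPM against 26.3 and 20.4 CPM. The Actn2 difference was the largest of the class at 4.16 ± 0.68 but was called by edgeR only with the block (adjusted p = 0.0574 without and 0.000994 with it).

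Of the 3 genes for PDZ and LIM proteins that bind alpha-actinin, Pdlim3 and Ldb3 rose. Pdlim3, which encodes ALP (chromosome 8, 45885461 to 45919548, plus strand), went from 120 and 187 CPM to 1292 and 1040.0 CPM, a log2 difference of 2.92 ± 0.43 (adjusted p = 0.0441). Ldb3, which encodes ZASP or Cypher (chromosome 14, 34526603 to 34588682, minus strand), had 61.9 and 99 CPM against 332 and 377 CPM, a difference of 2.14 ± 0.30 (adjusted p = 0.0439). In neither gene did the groups overlap. Pdlim5, which encodes the related protein ENH, differed less: its total RNA libraries held 121 and 200 CPM in WT and 148 and 289 CPM in AUF1 cells, so the groups overlapped, and the difference of 0.44 ± 0.39 was not called (adjusted p = 0.727).

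The calcineurin-binding myozenins differed widely in level. Myoz2, the form of slow and cardiac muscle (chromosome 3, 123006206 to 123035015, minus strand), had 12.9 and 13.7 CPM in WT and 93.5 and 111 CPM in AUF1 total RNA and rose by 2.94 ± 0.32 on the log2 scale (adjusted p = 0.0399). Myoz1, the fast fibre form, had 0.486 and 0.421 CPM against 2.87 and 3.67 CPM and was called by edgeR only with the block (adjusted p = 0.0895 without and 0.00615 with it). Myoz2 thus made up 93.7% ± 0.13 (SD, n = 2) of myozenin counts per kb of exon in WT and 94.5% ± 0.26 in AUF1 total RNA.

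Synpo2l, which encodes CHAP, an actin-associated Z-disc protein (chromosome 14, 20658946 to 20668354, minus strand), went from 204 and 221 CPM to 866 and 695 CPM (log2 difference 1.88 ± 0.25, adjusted p = 0.0413). Myoz1 lies beside it on the same strand (20649107 to 20656540), at a far lower level. Synpo2, the paralogue that encodes myopodin, had 116 and 143 CPM against 298 and 343 CPM, and its difference of 1.30 ± 0.29 was called by edgeR only with the block.

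Further Z-disc genes that edgeR called higher only with the block were Ankrd2, Xirp1, Nrap, Smpx, Csrp3, Tcap, Flnc and Des. Ankrd2, a stretch-responsive ankyrin repeat protein that binds titin, had the largest difference among them: it went from 23.9 and 44.8 CPM to 362 and 527 CPM, a log2 difference of 3.69 ± 0.70. Ankrd1 encodes CARP, the related titin-binding protein. It had 480 and 755 CPM in WT and 738 and 1435 CPM in AUF1 total RNA, with overlapping groups and a difference of 0.82 ± 0.39 that no fit of all libraries called. Per kb of exon, WT cells thus held 214 CPM of Ankrd1 and 30.2 of Ankrd2, and AUF1 cells 376 and 391 CPM.

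Des, which encodes desmin, the intermediate filament that ties Z-discs together, was the most abundant Z-disc gene in CPM. Its libraries held 1233 and 1153 CPM in WT and 4248 and 2506 CPM in AUF1 total RNA, a difference of 1.5 ± 0.30 (adjusted p = 0.0921 without the block and 0.00788 with it). Both AUF1 libraries were above WT but lay far apart from each other. Nrap, an anchoring protein of nascent myofibrils, had 19.8 and 41.6 CPM against 147 and 211 CPM, and Xirp1, which encodes the actin-binding Xin, 41.3 and 42.5 CPM against 275 and 150 CPM. Csrp3 (muscle LIM protein), Tcap (telethonin, which caps titin at the Z-disc) and Smpx differed by 1.90 ± 0.31, 1.86 ± 0.53 and 2.04 ± 0.33 on the log2 scale. Tcap was rare, at 1.42 and 2.11 CPM in WT and 8.16 and 4.70 CPM in AUF1 cells.

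The remaining Z-disc genes were called in no fit of total RNA that used all libraries. Capzb encodes the beta subunit of CapZ, which caps the barbed end of actin in every cell type. It had 475 and 506 CPM against 600 and 537 CPM, a log2 difference of 0.21 ± 0.25, and its sign turned when single libraries were left out. Nebl (nebulette), Myot (myotilin) and Xirp2 were rare, at 0.0405 to 0.888, 0.122 to 0.666 and 0.527 to 5.92 CPM across the total RNA libraries, and the groups of all 3 overlapped. In each of these rare genes replicate 2 was above replicate 1 in both genotypes.

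In the M-band, 3 of the 5 genes rose in total RNA, all 5 did with the block, and the median log2 difference was 2.76. The myomesins are the cross-links between neighbouring thick filaments. Myom3 (chromosome 4, 135759715 to 135815564, plus strand) went from 7.65 and 13.9 CPM to 122 and 140 CPM, which was 12.2-fold by the fit (log2 3.6 ± 0.36, adjusted p = 0.0399). Myom1 (chromosome 17, 71002633 to 71126856, plus strand) went from 14.9 and 24.4 CPM to 120 and 178 CPM, 7.59-fold (2.92 ± 0.36). Myom2 (chromosome 8, 15057653 to 15133541, plus strand) was the most abundant, at 101 and 128 CPM in WT and 596 and 840 CPM in AUF1 cells, 6.25-fold (2.64 ± 0.31). The groups were well apart in all 3. Exons of Myom1 share 207 bases (1.98%) with Myl12a on the opposite strand, which stood at 1227 to 2006 CPM across the 8 libraries. Per kb of exon, Myom3 made up 10.5% ± 2.2 (SD, n = 2) of myomesin counts in WT and 18.8% ± 2.2 in AUF1 total RNA, and Myom2 78.4% ± 3.7 and 69.1% ± 1.6. The shares were not tested.

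Smyd1, a lysine methyltransferase that binds myosin at the M-band, had 36.8 and 60.5 CPM against 355 and 303 CPM. Obsl1, a cytoskeletal adaptor that binds titin and myomesin, had 85.5 and 75.4 CPM against 328 and 182 CPM. Both differences were called by edgeR only with the block (Smyd1 2.76 ± 0.46, adjusted p = 0.0585 without and 0.000763 with it; Obsl1 1.66 ± 0.40, adjusted p = 0.139 and 0.00262).

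The start regions of the tested scaffold genes, whether or not they rose, were read from RefSeq (GRCm38.p6, the same build). There, 32 of these genes had 41 windows of 250 bases before to 50 bases after a start. The letters CAGCTG, which fit the E-box bound by MyoD and myogenin, stood on either strand in 12 of the 41 windows (29.3%) and in 16.0% of the 12501 windows of all tested genes. CATTCC, the core of the MCAT element bound by TEAD factors, stood in 10 windows (24.4%, against 12.5%). CTA and TAG with any 4 bases between them, a loose MEF2 core, stood in 12 windows (29.3%, against 3.14%), the MEF2 consensus, which overlaps it, in 7 (17.1%, against 1.85%), and the CArG box of serum response factor in 4 (9.76%, against 1.36%). Both the MEF2 consensus and the loose core stood in 5 windows. Some genes have more than 1 window: the 7 windows with the MEF2 consensus belong to 6 genes, and the 4 with the CArG box to 3. Genes that did not rise are among those with a motif, such as Tpm3 and Tpm4 with CAGCTG. The motifs are matches of letters and do not show that a factor was bound. The 250 bases before the start of 4 genes that rose are shown, since together they hold 4 of these 5 motifs. They read 5′ to 3′ on the strand of the gene, with the motifs in capitals.

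Myom3, chr4:135759465-135759714, plus strand, MEF2 consensus in capitals: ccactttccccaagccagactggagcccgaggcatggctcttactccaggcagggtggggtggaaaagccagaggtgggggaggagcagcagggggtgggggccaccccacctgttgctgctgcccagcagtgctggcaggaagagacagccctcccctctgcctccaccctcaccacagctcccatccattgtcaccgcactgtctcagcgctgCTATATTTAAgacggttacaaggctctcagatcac

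Synpo2l, chr14:20668355-20668604, minus strand, MEF2 consensus and loose core in capitals: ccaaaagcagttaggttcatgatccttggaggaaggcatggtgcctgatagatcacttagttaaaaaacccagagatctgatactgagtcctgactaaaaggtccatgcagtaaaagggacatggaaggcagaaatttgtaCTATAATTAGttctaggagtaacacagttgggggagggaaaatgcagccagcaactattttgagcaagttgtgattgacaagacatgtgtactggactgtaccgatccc

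Mybph, chr1:134193198-134193447, plus strand, CAGCTG followed directly by CATTCC on the other strand: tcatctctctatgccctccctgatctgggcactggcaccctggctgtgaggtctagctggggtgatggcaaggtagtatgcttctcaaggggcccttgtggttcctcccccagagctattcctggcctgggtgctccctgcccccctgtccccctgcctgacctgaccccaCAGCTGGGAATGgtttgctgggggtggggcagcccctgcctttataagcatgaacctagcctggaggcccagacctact

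Pdlim3, chr8:45885237-45885486, plus strand, CAGCTG between 2 CATTCC, of which the first is on the other strand: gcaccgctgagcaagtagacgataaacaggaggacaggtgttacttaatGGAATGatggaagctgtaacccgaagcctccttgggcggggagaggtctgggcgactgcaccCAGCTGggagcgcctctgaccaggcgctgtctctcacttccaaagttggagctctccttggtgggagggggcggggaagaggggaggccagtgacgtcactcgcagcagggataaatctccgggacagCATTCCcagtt

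In Myom3 the MEF2 match lay at bases -35 to -26 from the start, and in Synpo2l at -109 to -100. In Mybph the E-box lay at -79 to -74 and the MCAT core at -73 to -68. The RefSeq start of Pdlim3 (45885487) lies inside the gene as placed by GENCODE, which begins at 45885461. Its second CATTCC, at -11 to -6 from the RefSeq start, thus lies past the GENCODE start.

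Thin filament genes split in direction. Of 9 tested, 2 rose in total RNA, 6 rose with the block and 1 fell with it, and the median log2 difference was 2.37. Tpm2 encodes beta tropomyosin, which lies along actin and blocks the myosin sites at rest (chromosome 4, 43514711 to 43523765, minus strand). It had 1047 and 1133 CPM in WT and 6407 and 6018 CPM in AUF1 cells and rose 5.70-fold (log2 2.51 ± 0.29, adjusted p = 0.0399). Tpm1, alpha tropomyosin, had 2042 and 2259 CPM against 4953 and 4695 CPM, a difference of 1.17 ± 0.22 that was called by edgeR only with the block (adjusted p = 0.0828 without and 0.00910 with it). Tpm4, a mainly cytoskeletal tropomyosin, had 881 and 1130.2 CPM in WT and 451 and 704 CPM in AUF1 cells. It was lower in both AUF1 libraries by 0.80 on the log2 scale (SE 0.32, adjusted p = 0.338), and the fall was called by edgeR only with the block (adjusted p = 0.0386). Tpm3 had 149 CPM in both WT libraries and 162 and 135 CPM in AUF1 cells, a difference of -0.00 ± 0.24.

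The tropomyosin pool therefore had another make-up in AUF1 cells. Per kb of exon, Tpm2 made up 32.7% and 30.5% of tropomyosin counts in WT and 68.9% and 66.0% in AUF1 total RNA. Tpm4 went the other way, from 36.4% and 40.2% to 6.40% and 10.2%. Tpm1 made up 28.6% and 27.3% and then 23.9% and 23.1%, and Tpm3 at most 2.22%. On polysomes the pool looked alike, with Tpm2 at 28.4% and 30.1% in WT and 61.4% and 66.3% in AUF1 cells. Without division by length, Tpm2 had a mean share of 24.8% in WT and 52.8% in AUF1 total RNA, and Tpm4 22.8% and 4.93%. By that measure Tpm1 was the largest in WT, at 49.0%, and had 41.0% in AUF1 total RNA. Each of these genes makes several transcripts, and counts per gene do not separate them.

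**Figure D2:**
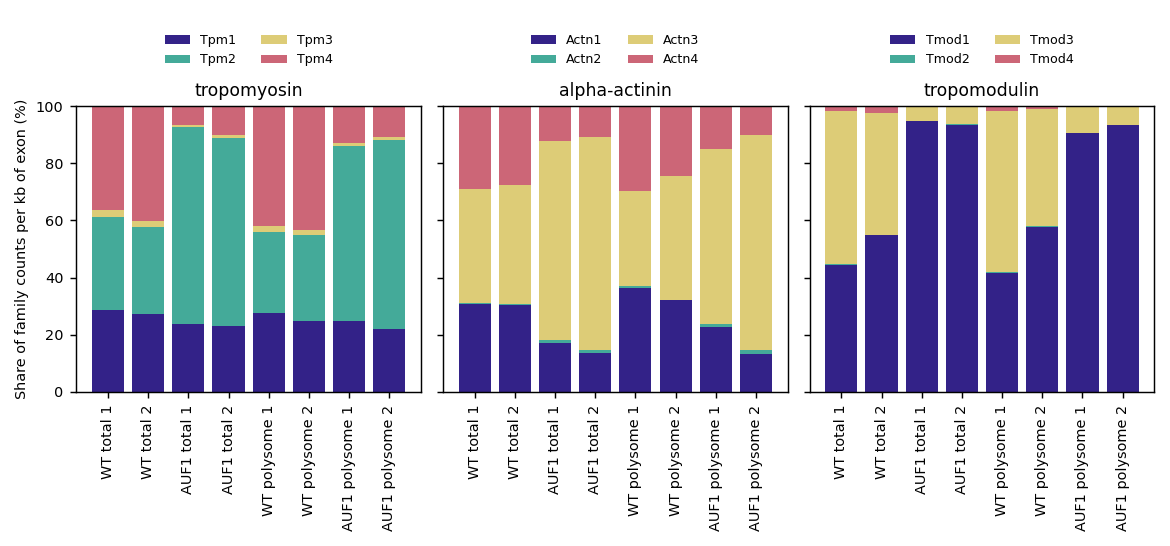
Share of each member of 3 families in the counts of its family per kb of exon, in percent, for each of the 8 libraries, as stacked bars. Tpm2, Actn3 and Tmod1 take a larger part of their bars in the 4 AUF1 libraries than in the 4 WT libraries, at the cost of Tpm4, of Actn1 and Actn4, and of Tmod3.

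Pointed ends of thin filaments are capped by tropomodulins and elongated by leiomodins. Tmod1 (chromosome 4, 46038935 to 46116032, plus strand) had 23.2 and 37.4 CPM in WT and 209 and 267 CPM in AUF1 total RNA, 7.85-fold by the fit (log2 2.97 ± 0.41, adjusted p = 0.0422). Its exons share 1287 bases (32.6%) with Tstd2 on the opposite strand. Tstd2 held 62.9 and 62.9 CPM in the WT and 66.8 and 71.4 CPM in the AUF1 total RNA libraries, and no source used here gives the strand setting of the counting. Tmod3, the ubiquitous form and not one of the scaffold genes, had 78.9 and 82.2 CPM against 30.1 and 48.5 CPM (log2 -1.04 ± 0.31, adjusted p = 0.201, and 0.0378 with the block). Per kb of exon the share of Tmod1 in tropomodulin counts went from 49.5% ± 7.4 (SD, n = 2) to 94.2% ± 0.82. Without division by length, its mean share was 26.7% in WT and 85.8% in AUF1 total RNA, and that of Tmod3 72.1% and 14.0%. Tmod4, described as the skeletal muscle form, was rare, at 0.405 and 0.702 CPM in WT and 0.315 and 0.370 CPM in AUF1 total RNA (-0.69 ± 0.60, adjusted p = 0.717).

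Lmod2 and Lmod3, which nucleate actin, had 14.4 and 23.5 CPM and 13.2 and 30 CPM in WT. In AUF1 total RNA they had 53.1 and 153 CPM and 68.6 and 154 CPM. Their differences of 2.44 ± 0.56 and 2.37 ± 0.55 were called by edgeR only with the block. Neb, the giant nebulin, had 15.2 and 54.7 CPM in WT and 67.0 and 489 CPM in AUF1 total RNA. Replicate 2 stood above replicate 1 by 2.87 on the log2 scale in AUF1 cells and by 1.85 in WT cells. The difference of 2.99 between the genotypes had an SE of 1.06 (adjusted p = 0.277), and with the block it was 2.78 ± 0.48 (adjusted p = 0.00559).

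In the thick filament class, 1 of 4 genes rose, all 4 did with the block, and the median log2 difference was 3.48. Mybph encodes myosin binding protein H (chromosome 1, 134193448 to 134201232, plus strand). It had 427 and 509 CPM in WT and 3001 and 2860.3 CPM in AUF1 cells, 6.26-fold (2.65 ± 0.31, adjusted p = 0.0399). Per kb of exon Mybph had rank 2 of 42 in AUF1 total RNA, at 1258 CPM against 2136 for Tpm2, and rank 6 in WT, at 201 CPM. Its exons share 1162 bases (49.9%) with Adora1 on the opposite strand, which had at most 3.05 CPM in any library.

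Its relatives were scarce. Mybpc1, the slow myosin binding protein C, had 3 and 31 counts in WT and 93 and 575 counts in AUF1 total RNA, and Mybpc2, the fast form, 1 and 7 counts and 147 and 61 counts. Both were called by edgeR only with the block (adjusted p = 0.234 and 0.0719 without, 0.000715 and 0.00311 with it), and the size of their differences rests on few WT counts. Ttn, which encodes titin, had 59.1 and 160 CPM in WT and 163 and 650 CPM in AUF1 total RNA. Replicate 1 of AUF1 cells thus barely passed replicate 2 of WT cells, and the log2 difference of 1.89 ± 0.76 was called by edgeR only with the block (1.80 ± 0.36, adjusted p = 0.0120).

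On heavy polysomes the same comparison gave differences of like size. Of the 40 genes, 5 rose (Mybph, Myom3, Tpm2, Actn3 and Myoz2) and 0 fell, against 0.281% and 0.0684% of all genes. With the block 31 rose (6.7% of all genes) and 0 fell (6.33%), and the DESeq2 Wald test called 25 higher (3.65%) and 0 lower (2.86%). The median log2 difference was 2.08 over the scaffold genes and 0.00 over all genes. Both AUF1 libraries lay above both WT libraries in 33 of the 40 (23.6% of all genes), and below in Tpm4 alone (21.3%). The adjusted p of the 5 calls lay between 0.0461 and 0.0492, and with DESeq2's size factors 0 genes passed, the smallest being 0.0588. Without the block 0 genes passed when any 1 library was left out, and with it between 25 and 31 scaffold genes rose.

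Mybph had 292 and 420 CPM in WT polysomes and 1680.2 and 2429 CPM in AUF1 polysomes (log2 2.53 ± 0.31, adjusted p = 0.0461). Tpm2 went from 930 and 1281 CPM to 4726 and 6933 CPM (2.40 ± 0.29). Myom3 went from 10.0 and 9.93 CPM to 76.3 and 72.7 CPM (2.90 ± 0.35). These groups lay far apart relative to the spread within each. Actn3 had 177 and 151 CPM against 686 and 809 CPM (2.19 ± 0.28), and Myoz2 8.61 and 11.4 CPM against 58.6 and 85.2 CPM (2.85 ± 0.32). The 6 genes that edgeR called in total RNA and not here missed the threshold by little: Tmod1, Myom2, Myom1, Pdlim3, Ldb3 and Synpo2l had adjusted p between 0.0514 and 0.0625, and all were called with the block.

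By compartment, the median log2 differences on polysomes were 1.58 in the Z-disc, 2.50 in the M-band, 2.40 in the thin filament and 3.33 in the thick filament class. Ttn went from 81.0 and 137 CPM to 467 and 591 CPM, and Neb from 21.8 and 45.9 CPM to 204 and 302 CPM, so that their libraries of 1 group lay closer together than in total RNA. Neither was called without the block (adjusted p = 0.256 for Ttn and 0.287 for Neb). Under the block, Pdlim5 and Ankrd1 were called higher on polysomes and not in total RNA. Myoz1 and Flnc (higher) and Tpm4 (lower) were called in total RNA and not on polysomes. Flnc encodes filamin C, the muscle filamin. These contrasts do not show a difference between the fractions, which is tested next.

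**Figure D3:**
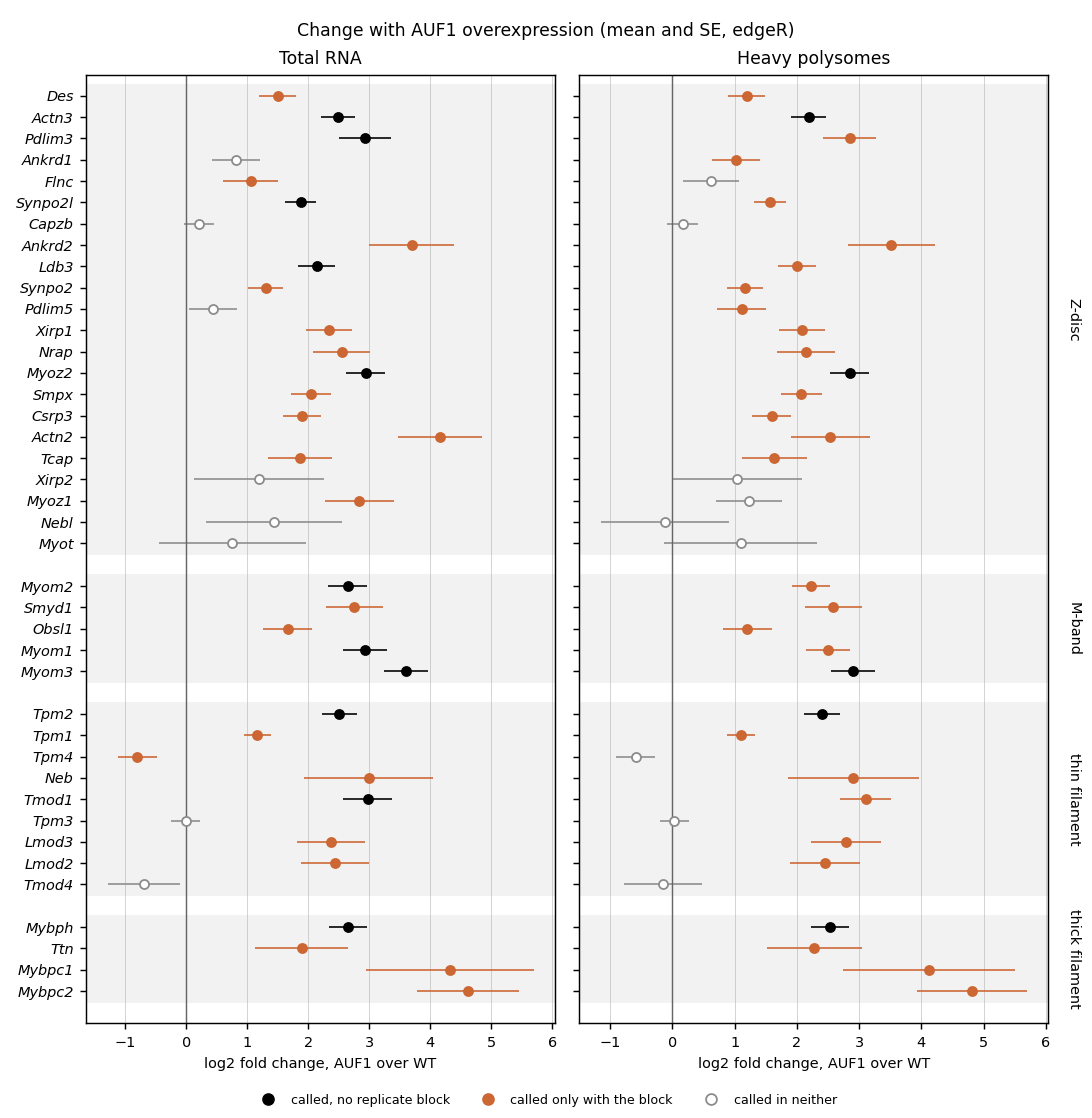
Log2 fold change of AUF1 over WT for the 40 tested scaffold genes, by compartment, in total RNA (left) and heavy polysomes (right). Points are edgeR estimates and bars 1 SE; black, called by edgeR without the block (11 left, 5 right); orange, called by edgeR only with it; open, called in neither of these 2 fits. Tpm4, Tmod4 and Tpm3 sit at or below 0 in total RNA while most points lie between 1 and 4.

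Whether AUF1 changed the polysome share of these mRNAs beyond their total level was tested as the interaction, the log2 change on polysomes minus that in total RNA. For 0 scaffold genes and 0 of all 13167 genes was it called by edgeR without the block (0% of all genes), with the block (0%) or by DESeq2 (0%). At an unadjusted p under 0.05, edgeR gave 0 scaffold genes and 16 genes in all (0.122%), and DESeq2 0 and 16 in all (0.122%). The block gave 1 scaffold gene (Myoz1, 2.5% of the 40) and 49 genes in all (0.372%). The median interaction was -0.14 over the scaffold genes and -0.02 over all genes. The most negative values were those of Actn2 (-1.62 ± 0.86) and Myoz1 (-1.61 ± 0.75), both rare. Actn2 had 5.11 and 1.27 CPM in WT polysomes and 17.8 and 19.3 CPM in AUF1 polysomes, and without replicate 1 of WT polysomes its interaction was -0.30. That library also held 255 counts of Myl7, 113 of Lum and 23 of Nppa, markers of the cardiac and fibroblast lists that had at most 2 counts in each of the other libraries. The part of such RNA in the Actn2 value was not tested. In the M-band class the median was -0.43, with all 5 genes between -0.70 and -0.18. The smallest SE of an interaction among the scaffold genes was 0.31 (Tpm1). Differences of that size and well above it were not detectable with these libraries, so the lack of calls does not exclude them. In the same fit even the total RNA difference of Tpm1, 1.17 ± 0.22, was not called.

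Within a genotype, polysome libraries were set against total RNA libraries. Without the block 0 scaffold genes were called in WT or in AUF1 cells, as were 0 of all genes in either. With it 0 scaffold genes were called, against 0.0152% of all genes lower and 0% higher in each genotype, and DESeq2 called 0, against 0.22% lower in WT and 0.197% lower in AUF1 cells. At an unadjusted p under 0.05, edgeR gave 364 genes in WT (2.76% of all), of which 0 were scaffold genes. In AUF1 cells it gave 438 (3.33%), of which 3 were scaffold genes (7.5% of the 40). These were Myom2, Myom3 and Actn3, all with lower polysome values. With the block it gave 1056 genes in WT (8.02%), of which 2 were scaffold genes (5%, Myom2 and Actn2). In AUF1 cells the block gave 1604 genes (12.2%), of which 10 were scaffold genes (25%). Both polysome libraries lay below both total RNA libraries in 8 of 40 scaffold genes in WT (14.9% of all genes) and in 14 in AUF1 cells (13.4%). They lay above in 3 (13%) and 1 (8.86%).

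In AUF1 cells, 4 of the 5 M-band genes were among the 14. Myom2 had 596 and 840 CPM in total RNA and 306 and 403 CPM on polysomes, a log2 difference of -1.02 ± 0.30 (adjusted p = 1 without and 0.256 with the block). Myom3 differed by -0.82 ± 0.33, Obsl1 by -0.83 ± 0.39, and Myom1 by -0.67 ± 0.34. In WT cells Myom2 differed by -0.60 ± 0.30 and Myom3 by -0.11 ± 0.33. The scaffold gene that stood above was Tpm4, at 451 and 704 CPM in total RNA and 751 and 863 CPM on polysomes of AUF1 cells (0.48 ± 0.31).

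**Figure D4:**
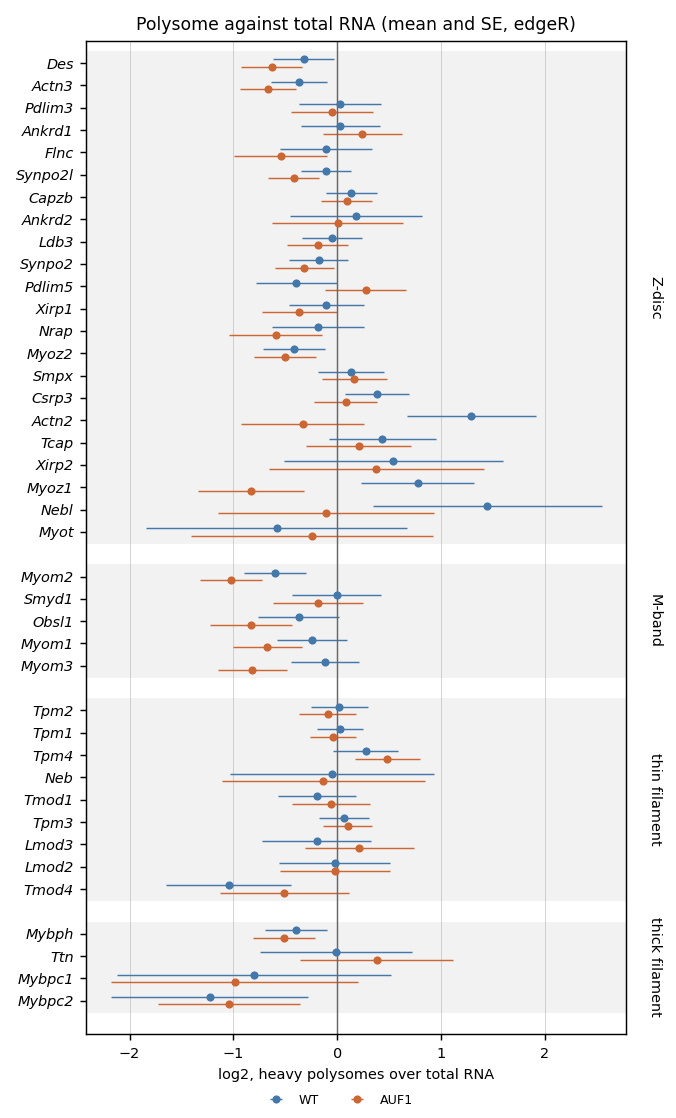
Log2 ratio of heavy polysomes over total RNA for the 40 tested scaffold genes in WT (blue) and AUF1 cells (orange); points are edgeR estimates and bars 1 SE. Most bars cross 0, and the orange points of Myom1, Myom2, Myom3 and Obsl1 lie between -1.02 and -0.67.

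The spread between libraries of 1 group was not alike in all scaffold genes. It moved with the GC content of the mRNA and, in total RNA, less closely with its coding length. In AUF1 total RNA, replicate 2 minus replicate 1 was 2.87 for Neb, 2.68 for Mybpc1, 2.56 for Xirp2 and 2.00 for Ttn on the log2 scale, and -1.17 for Mybpc2, -1.04 for Flnc and -0.85 for Obsl1. Among the 10 tested genes with the lowest GC (40.1% to 47.9%, Nebl to Lmod3), replicate 2 was higher in 10 of 10 in total RNA of each genotype, by a median of 1.22 in WT and 1.28 in AUF1 cells. Among the 10 with the highest GC (55.2% to 62.5%) the medians were 0.08 and -0.61. Across the 40 genes, which are not independent replicates and share their libraries, Pearson's r of this difference with GC was -0.54 in WT total RNA and -0.71 in AUF1 total RNA. On polysomes it was -0.27 and -0.51. Across 11966 tested genes with a coding transcript it was -0.25 and -0.48 in total RNA and -0.03 and -0.04 on polysomes. With the log of the coding length, r over the 40 genes was 0.40 in total RNA of both genotypes. On polysomes it was -0.05 in WT and -0.07 in AUF1 cells. Over all 11966 genes it was 0.14 and 0.12 in total RNA and -0.11 and -0.09 on polysomes.

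**Figure D5:**
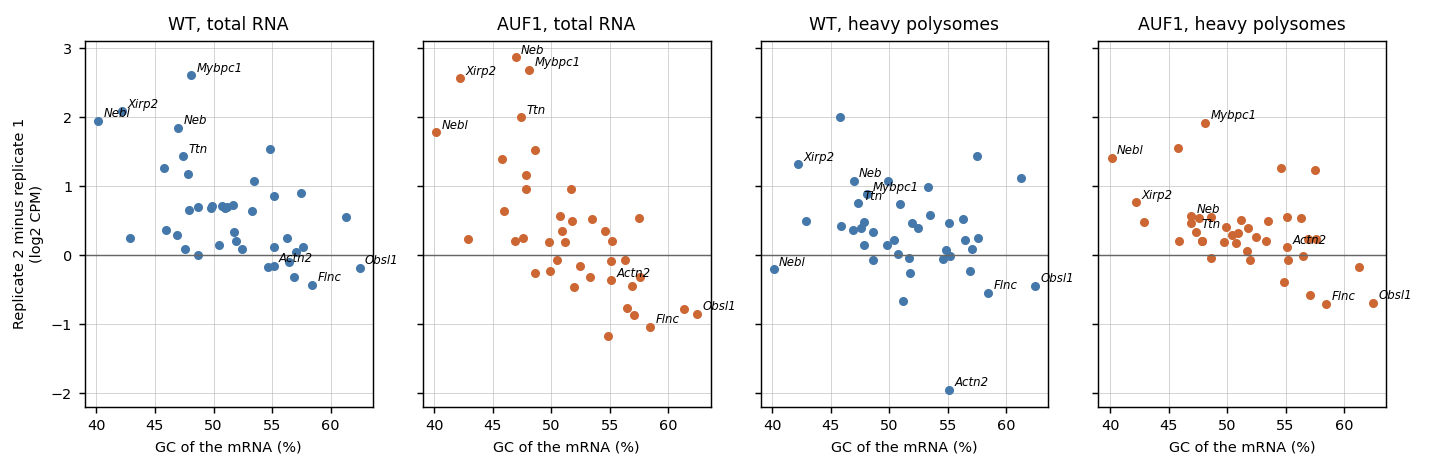
Replicate 2 minus replicate 1 in log2 CPM for the 40 tested scaffold genes, against the GC content of the longest coding transcript in percent, in each of the 4 groups. In both total RNA panels the points of low GC, such as Neb, Ttn, Xirp2 and Nebl, lie above 0, and in AUF1 total RNA those of high GC, lie mostly below it (8 of the 10 with the highest GC, Flnc and Obsl1 among them; Ankrd2 and Myom3 lie above).

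The AUF1 against WT differences themselves had a Pearson's r with GC of 0.25 in total RNA and 0.19 on polysomes over the scaffold genes. The polysome ratio in AUF1 cells had an r of -0.43 with GC over the scaffold genes and -0.49 over all genes. For the interaction the r over all genes was -0.46, and it was 0.08 without replicate 1 of AUF1 total RNA and -0.63 without replicate 2, and between -0.41 and -0.15 without any other single library. With the block and without replicate 2 of AUF1 total RNA, 4 scaffold genes were called between polysomes and total RNA of AUF1 cells: Neb at 1.34 and Ttn at 1.29 higher, and Obsl1 at -1.01 and Des at -0.98 lower. The part of GC or of coding length in any of these differences was not tested.

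AUF1 is known to bind AU-rich elements in 3′ untranslated regions. In each gene only the 3′ UTR of the transcript with the longest coding sequence was read. For Pdlim5 that transcript has no 3′ UTR, while the other 39 tested scaffold genes had one. Of these 39, 19 held at least 1 ATTTA (48.7%), against 66.1% of 11815 tested genes. Their 3′ UTRs were shorter, with medians of 486 and 978 bases, and the density of ATTTA was 1.81 per kb in both. The longer letters TTATTTATT stood in 1 scaffold gene (2.56%), Ankrd1, and in 7.47% of all genes. The first of its 2 sites, bases 174 to 194 of its 742-base 3′ UTR, is shown. No other scaffold gene held one in the 3′ UTR that was read.

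Ankrd1, first TTATTTATT in capitals: ccacttTTATTTATTcctacc

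Ankrd1 had overlapping groups in total RNA, as given above. On polysomes it had 599 and 663 CPM in WT and 1198 and 1374 CPM in AUF1 cells, which did not overlap, a difference of 1.03 ± 0.39 called by edgeR only with the block (adjusted p = 0.307 without and 0.0306 with it). Of the 11 genes called in total RNA, Myom1, Myom3, Tmod1, Ldb3 and Pdlim3 hold an ATTTA in the 3′ UTR that was read. A match of letters does not show that AUF1 was bound.

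Other genes of the same structures were counted alongside. Of 23 further Z-disc, M-band and costamere genes, 21 were tested: 3 rose in total RNA, 6 did with the block, 0 fell in either, and the median log2 difference was 0.55. Those with small p included Ankrd23, a titin-binding relative of Ankrd2 (16.7 and 23.9 CPM against 178 and 167 CPM, log2 3.08 ± 0.31), Fbxl22, an F-box protein that acts on alpha-actinin (4.14 ± 0.42), and Mypn, myopalladin (3.11 ± 0.53, called by edgeR only with the block). Costamere and ubiquitous genes of that list, such as Vcl (0.28 ± 0.74) and Plec (0.46 ± 0.31), were called in neither fit.

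Of 16 genes of sarcomere assembly and turnover, all tested, 8 rose, 10 did with the block and 0 fell, with a median of 1.81. Unc45b, the chaperone of muscle myosin, had 15.0 and 20.8 CPM in WT and 180 and 159 CPM in AUF1 total RNA (3.24 ± 0.31, adjusted p = 0.0399). The others with the smallest p were Abra, an actin-binding activator of serum response factor signalling (2.71 ± 0.32), Trim55, the titin-binding ligase MURF2 (2.38 ± 0.30), and Klhl41, a Kelch protein of nascent myofibrils (2.82 ± 0.35). On polysomes 4 of the 16 rose and 10 did with the block.

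Non-muscle relatives of the scaffold genes formed a further list. Of 12 tested, 0 were called in total RNA, and with the block 1 rose (Lmod1, 1.43 ± 0.27) and 2 fell (Tmod3 and Csrp2, -0.89 ± 0.25), with a median of 0.11. Actn1 and Actn4, the non-muscle alpha-actinins, had 344 and 261 CPM and 358 and 261 CPM in WT, and 640 and 344 CPM and 507 and 299 CPM in AUF1 total RNA. Their share of alpha-actinin counts per kb of exon went from 30.6% ± 0.32 and 28.2% ± 1.1 (SD, n = 2) to 15.3% ± 2.5 and 11.4% ± 1.2, while that of Actn3 went from 40.9% ± 1.4 to 72.2% ± 3.6. The sign of the Actn4 difference turned when single libraries were left out.

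Markers of other cell types moved beside the scaffold genes. Of 9 fibroblast markers 5 were tested: 0 fell without the block and 4 with it in total RNA, and the list summed to 1401 to 3807 CPM in WT and 612 to 1575 CPM in AUF1 total RNA, with Fap and Tcf21 at no more than 10 counts in each library. Of 8 muscle lineage markers 2 rose (Ckm and Myh3) and 5 did with the block. Myf5 went the other way, at 20.7 and 46.2 CPM in WT and 13.2 and 25.7 CPM in AUF1 total RNA. Groups overlapped in Myf5, Myod1, Tmem8c and Cdh15, and replicates of the last 2 lay far apart. Tmem8c had 370 and 47.7 CPM in WT and 2418 and 186 CPM in AUF1 total RNA, and Cdh15 434 and 94.8 CPM and 1321 and 116 CPM. Of 6 smooth muscle markers 4 were tested and 1 rose (Cnn1), 2 with the block, and the list summed to 5590 to 6634 CPM and 8599 to 13705 CPM, with Myocd at no more than 10 counts. Of 8 cardiac markers 5 were tested and 0 rose, 1 with the block (Myh6, log2 3.16, SE 0.79), with sums of 40.9 to 41.5 CPM and 55.8 to 71.8 CPM. No marker of any list was at 0 in all libraries, but several were nearly absent from total RNA. Lum and Tcf21 had 0 counts in each total RNA library, Thy1 at most 1, and Nppa, Myl7 and Ryr2 at most 2. Myh11, of the smooth muscle list, had 7 and 5 counts in WT and 1 and 4 counts in AUF1 total RNA. Acta2, of the same list, had 5868 and 4911 CPM in WT and 11895 and 7418 CPM in AUF1 total RNA. The part of a different cell make-up in the differences of the scaffold genes was not tested.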

How the data were processed

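The values analysed were raw counts per gene for 8 libraries, deposited by the authors as 1 table. Per the labels' protocols, RNA was purified with RNeasy columns and 500 ng entered NEBNext Ultra library preparation. Tools listed without versions, per the submitters' processing notes, are STAR, Bowtie, cutadapt, Trimmomatic and SAMtools, with the build mm10. No source used here names the counting program or its strand setting. Libraries titled High were read as heavy polysomes from their labels. The table's 5 summary lines were left out (no feature 6.04% to 7.23%, ambiguous 0.254% to 0.389%), and 27 genes whose names had turned into dates (0.216% to 0.327% of counts) stayed in. Assigned counts were 25281224 to 34917660 per library.

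Genes passing filterByExpr (13167) were fitted over all 8 libraries with edgeR 4.0.16 in R 4.3.3 (TMM, quasi-likelihood test, Benjamini-Hochberg over all genes). DESeq2 1.42.0, its size factors within edgeR, no filter, leaving out each library, and the replicate number as a block were alternatives. Same-numbered libraries deviated together from their group means (r 0.62 to 0.81 over 13167 genes), so the numbers were taken to pair the libraries. Titles number the replicates 1 and 2, which is followed here, while the table's columns and the sample descriptions call the second one Rep3. The pipeline was tested on simulated counts. Every scaffold gene is accounted for, and those named from other lists were taken from the 4 with the smallest p or from relatives in a family, some of which are not reported here. The scaffold genes and lists were chosen with earlier results of these data known.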

Additional observations from a re-analysis of the deposited data

How the results depend on the processing

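In total RNA, 31 scaffold genes were called higher and 1 lower with the replicate block, 29 higher by DESeq2 and 0 with DESeq2's size factors in edgeR, against 11 and 0. Over all genes these settings called 1730, 885 and 0, against 134. On polysomes 31, 25 and 0 scaffold genes were called higher, and 9 without a filter, against 5. Over all genes the block called 1716, DESeq2 856, the size factors 0 and no filter 94, against 46. Between polysomes and total RNA, genes called over the whole table went from 0 to 2 with the block and 29 by DESeq2 in WT cells, and to 2 with the block, 26 by DESeq2 and 1 without a filter in AUF1 cells. The median of the scaffold genes was 2.03 within replicate 2 alone in total RNA, 1.97 within replicate 1 alone on polysomes, and -0.39 within replicate 1 alone for polysomes against total RNA of AUF1 cells.

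Leaving out 1 library, with or without the block, gave 0 to 31 scaffold genes higher and 0 to 1 lower in total RNA, with 0 to 3017 genes in all and a median of 1.81 to 2.63. On polysomes it gave 0 to 31 higher and 0 to 1 lower, with 0 to 2966 in all and a median of 1.84 to 2.20. The interaction gave 0 scaffold genes, 0 to 7 in all and a median of -0.38 to 0.15. Polysomes against total RNA gave 0 scaffold genes, 0 to 44 in all and a median of -0.26 to 0.35 in WT cells, and 0 to 2 higher, 0 to 2 lower, 0 to 1147 in all and a median of -0.39 to 0.029 in AUF1 cells. The causes were not tested.

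Signs turned in single genes. With the block, the polysome ratio of Neb in AUF1 cells was 0.40. Over the fits that left out 1 library, the total RNA difference ran from -0.094 to 0.71 in Actn4, -0.052 to 0.41 in Capzb, -0.29 to 1.81 in Myot, -0.12 to 0.85 in Pdlim5, -0.25 to 0.17 in Tpm3 and -0.66 to 2.69 in Xirp2. The polysome difference ran from -0.11 to 0.83 in Actn1, -0.21 to 0.70 in Actn4, -0.022 to 0.37 in Capzb, -0.19 to 3.51 in Myot, -1.49 to 0.76 in Nebl, -0.72 to 0.054 in Tmod2, -0.81 to 0.58 in Tmod4 and -0.18 to 0.26 in Tpm3. The polysome ratio in AUF1 cells ran from -0.95 to 1.92 in Neb and -0.30 to 1.70 in Ttn.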
